A study of Mus musculus with 6 samples.

Results

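The distal convoluted tubule and the connecting tubule that follows it are short stretches of the nephron where the kidney fine-tunes salt, magnesium and calcium. The 10 genes described here, Slc12a3, Pvalb, Trpm6, Trpv5, Calb1, S100g, Slc8a1, Wnk1, Wnk4 and Klk1, are known for these functions, and they were fixed by name out of the 18048 genes that had a probe annotated with a single gene symbol. Where a gene had more than 1 such probe, the probe with the highest mean over the 6 arrays stood for it.

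Sodium and chloride enter distal convoluted tubule cells through the thiazide-sensitive cotransporter encoded by Slc12a3, which WNK kinases regulate through the kinase SPAK (Stk39). Magnesium enters the same cells through the channel TRPM6. Further along, calcium enters through the channel TRPV5, is carried across the cell by calbindins and leaves on the blood side through sodium-calcium exchange and calcium pumps. Parvalbumin is a cytosolic calcium-binding protein of the early distal convoluted tubule in the mouse, and tissue kallikrein is a protease secreted mainly by the connecting tubule.

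Kidney RNA came from 3 wild-type animals and 3 homozygous mutants, with 1 mouse per array and the genotypes named WT and KO in the sample titles. Part of each kidney was frozen after the blood had been washed out with phosphate-buffered saline, and biotin-labelled cRNA was read on CodeLink arrays, a single-colour oligonucleotide platform. The sources used here give neither the mutated gene nor the strain, age or sex, so no target transcript was available as a check of the labels. A level is the log2 of an intensity divided by its array's median, with its SD over n = 3 arrays. A difference is the mutant level less the wild-type level, with its SE from a limma fit to all probes. A gene is said to rise or fall only past a Benjamini-Hochberg adjusted p of 0.05.

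Among the members, Pvalb fell by 1.44 ± 0.25 log2 units in mutant kidney, Trpv5 differed by 0.78 ± 0.21 and lay just outside the threshold, and no other member passed. Slc12a3 differed by -0.07 ± 0.13, and the calbindin genes Calb1 and S100g by 0.20 ± 0.24 and -0.08 ± 0.25. Of the 10 members, 8 had a probe bright enough to be tested, and 1 of these fell and 0 rose (limma; 2 had an unadjusted p under 0.05, Pvalb and Trpv5). Over all 14817 genes tested, 1.59% fell and 5.67% rose. The median difference of the 8 members was -0.03, against 0.08 over all genes. In whole tissue, fewer cells of a type and less RNA per cell cannot be told apart.

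**Figure D1:**
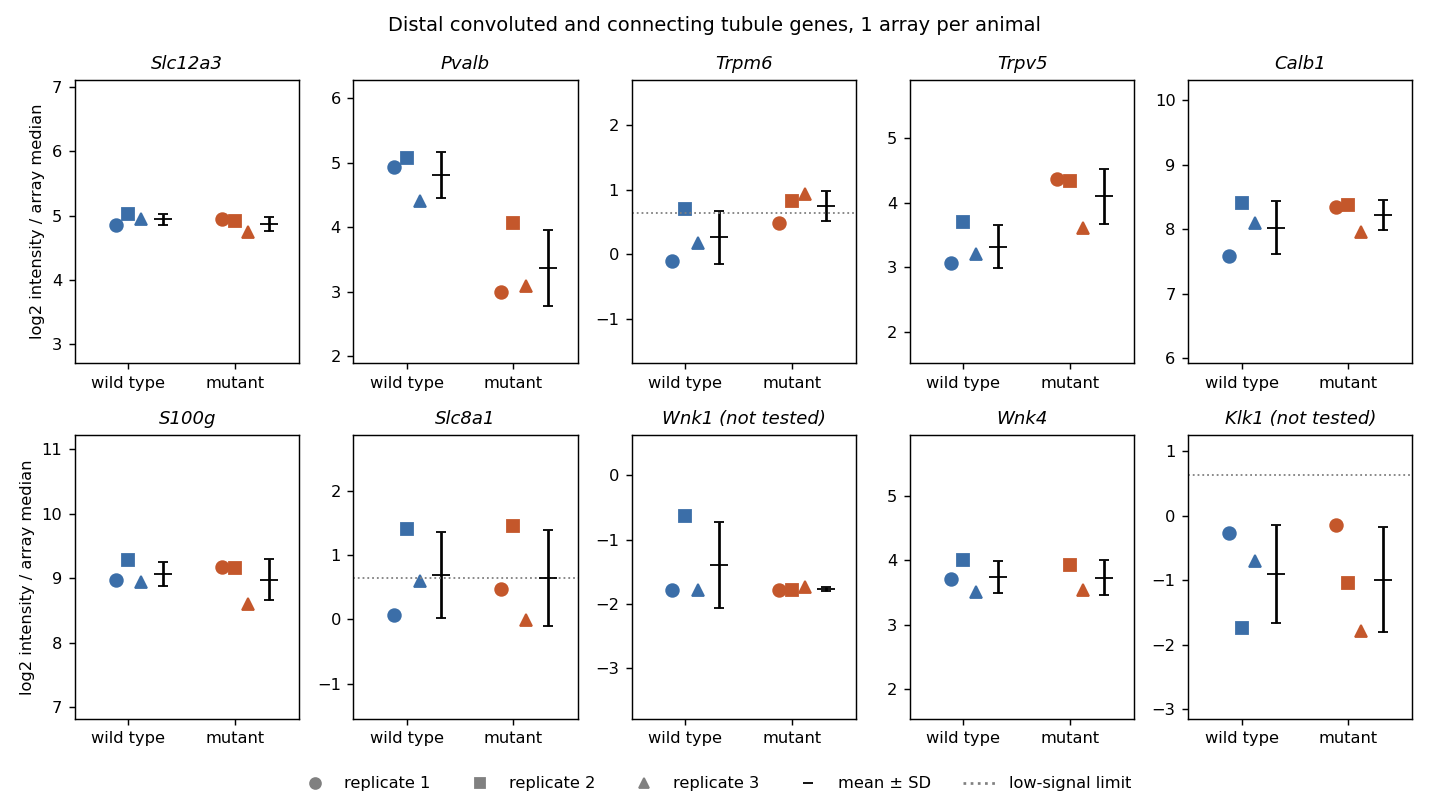
Log2 level relative to the array median (vertical axis, the same span in each panel) of the 10 members on each array, wild type in blue and mutant in orange, with symbols for replicate numbers, the mean ± SD beside them and the low-signal limit as a dotted line where it falls in the panel. The 3 mutant Pvalb values, at most 4.06, lie below the lowest wild-type value of 4.41, while Slc12a3 stays between 4.75 and 5.03 on all 6 arrays.

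Replicate 1 of each genotype differed from the others in sex-linked transcripts. Eif2s3y, on the Y chromosome, was at the floor of -1.79 on both arrays and between 3.01 and 3.46 on the other 4, while the brighter Xist probe was at 2.21 and 3.00 against at most -0.21. Both genotypes therefore held 1 array of this kind. A second Xist probe did not show the pattern. It read -0.85 and -0.47 on the arrays numbered 1 and lay below the low-signal limit on every array with a value. In mutants, 6 of 6 fibroblast and pericyte markers, 4 of 5 macrophage markers and 4 of 4 tested tubular injury markers rose, and 4 of 9 proximal tubule markers fell. The summed linear levels of those lists ran from 101 to 120, 20.0 to 26.1, 42.5 to 60.7 and 603 to 647 array medians in wild type, and from 363 to 379, 92.5 to 124, 202 to 224 and 369 to 412 in mutants. Among the 9 proximal tubule markers, 8 had an unadjusted p under 0.05 (limma) and 0 had a positive difference, with a median of -0.63. Of the T and B lymphocyte markers 2 of 5 rose (Cd3d and Ighm), with sums from 12.1 to 13.1 in wild type and from 19.8 to 21.2 in mutants. Endothelial (4 tested) and podocyte markers (3 tested) held 0 calls by limma, with 3 and 0 at an unadjusted p under 0.05. These counts use the brightest probe of each gene. A dimmer probe of the podocyte gene Wt1, named after its values were seen, had means of 1.28 in wild type and -0.34 in mutants. Its difference of -1.62 ± 0.36 passed (limma, adjusted p = 0.0153), with every mutant array below the low-signal limit. The brighter Wt1 probe differed by -0.03 ± 0.20, so the probes of this gene disagreed. Alas2, an enzyme of haem synthesis in red cell precursors, read 2.48, 3.62 and 3.25 in wild type and -0.18 and 3.15 in mutant replicates 1 and 3, and did not pass. The part of these shifts in the results below was not tested. Markers of the neighbouring thick ascending limb (0 of 6 called) and of collecting duct principal (0 of 6) and intercalated cells (0 of 6) included no call by limma (1, 1 and 0 had an unadjusted p under 0.05), with Umod, the uromodulin gene of the thick ascending limb, between 7.38 and 8.04 on all arrays. Of all probe calls 76.4% were higher in mutants, a share of 61.5% after quantile normalization and 62.9% after cyclic loess.

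The transporters and channels of the apical membrane come first. Slc12a3, whose product takes up sodium and chloride and is the target of thiazide diuretics, read 4.85, 5.03 and 4.95 in wild-type replicates 1 to 3 and 4.94, 4.92 and 4.75 in the mutants. The groups overlapped, and the SDs were 0.0882 in wild type and 0.106 in mutants. The 95% interval of the difference ran from -0.35 to 0.21, so that a mutant level more than 1.27-fold lower lay outside it (limma, adjusted p = 0.846).

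Trpv5, the calcium channel that sets the rate of calcium uptake in the late distal convoluted and connecting tubule, read 3.06, 3.70 and 3.20 in wild type and 4.37, 4.33 and 3.61 in mutants. Mutant replicates 1 and 2 lay above every wild-type array, and mutant replicate 3 lay below wild-type replicate 2, so the groups overlapped. The means were 3.32 ± 0.336 and 4.10 ± 0.426 (SD, n = 3 each), a difference of 0.78 ± 0.21 with a 95% interval from 0.32 to 1.24, or 1.71-fold (limma, adjusted p = 0.0516). The gene passed without wild-type replicate 2 (adjusted p = 0.0266) or mutant replicate 3 (0.0121), and over 23 alternatives the limma adjusted p ran from 0.00821 to 0.332, with the difference positive in all of them. It was 1.30 between the arrays numbered 1 and 0.51 between those numbered 2 and 3.

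Trpm6, the magnesium channel whose loss causes low blood magnesium, was dim. A value of 0.64 log2, the mode of the linear values plus 3 times the spread below it, was taken as the limit of low signal. The Trpm6 probe read -0.10, 0.70 and 0.17 in wild type and 0.48, 0.83 and 0.94 in mutants, above the limit on 1 wild-type and 2 mutant arrays. Its difference of 0.49 ± 0.38 had a 95% interval from -0.32 to 1.30 (limma, adjusted p = 0.579), which holds sizes in either direction.

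Among calcium-binding proteins inside the cell, Pvalb read 4.94, 5.08 and 4.41 in wild type and 2.99, 4.06 and 3.08 in mutants. Every mutant array lay below every wild-type array, and mutant replicate 2 was the mutant nearest to the wild types. The means were 4.81 ± 0.352 and 3.37 ± 0.592 (SD, n = 3 each). The level was 2.71-fold lower in mutants, with a 95% interval from 1.87-fold to 3.93-fold (limma, adjusted p = 0.00337). Groups did not overlap in 1 of the 7 tested members measured on all arrays, against 26.7% of all such genes.

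Pvalb is also abundant in fast skeletal muscle, whose markers were read for this reason. All 6 of them (Acta1, Ckm, Myh4, Atp2a1, Tnnt3 and Mb) lay below the low-signal limit on every array, and their summed linear level ran from 2.79 to 4.92 array medians in wild type and from 3.53 to 3.95 in mutants. The Pvalb difference was negative on both kinds of array described above, at -1.95 between the arrays numbered 1 and -1.18 between those numbered 2 and 3. With that pattern as a block the limma adjusted p was 0.00378. The Pvalb call held with 21 of 23 alternatives. It was lost when the variance had no intensity trend (limma, adjusted p = 0.150) and without both arrays numbered 1 (adjusted p = 0.0560, 2 arrays per genotype), and the adjusted p was at most 0.0261 in the others.

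The calbindins are small proteins that buffer calcium and ferry it across the cell. Calb1 read 7.58, 8.40 and 8.09 in wild type and 8.34, 8.37 and 7.95 in mutants, with overlapping groups and wild-type replicate 1 the lowest. The difference of 0.20 ± 0.24 had a 95% interval from -0.31 to 0.70 (limma, adjusted p = 0.745). It turned to -0.02 without wild-type replicate 1 and was 0 when both probes of the gene were averaged. The second Calb1 probe, between 1.28 and 1.78 on the 6 arrays, differed by -0.20 ± 0.23 and did not pass either.

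S100g, which encodes the smaller vitamin D-dependent calbindin, read 8.97, 9.28 and 8.94 in wild type and 9.17, 9.16 and 8.60 in mutants. Mutant replicate 3 was the lowest array and wild-type replicate 2 the highest, and the difference of -0.08 ± 0.25 had a 95% interval from -0.63 to 0.46 (limma, adjusted p = 0.913). Its sign was positive, 0.04, after cyclic loess. Saturation of bright spots was not recorded in the values used here.

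Slc8a1 encodes the sodium-calcium exchanger that moves calcium out on the blood side. It had 2 probes with a single symbol, both near the low-signal limit. The brighter read 0.07, 1.40 and 0.60 in wild type and 0.47, 1.45 and -0.01 in mutants, above the limit on 1 array of each genotype. The difference was -0.05 ± 0.45 and that of the second probe 0.52 ± 0.65, with 95% intervals from -1.03 to 0.92 and from -0.87 to 1.90. In the readings of the brighter probe, a level more than 2.04-fold lower or 1.89-fold higher in mutants lay outside the interval. Readings this near the limit cannot bound a change of the transcript, and the interval of the second probe extends further upward. A further probe annotated with Slc8a1 and another symbol was not used.

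**Figure D2:**
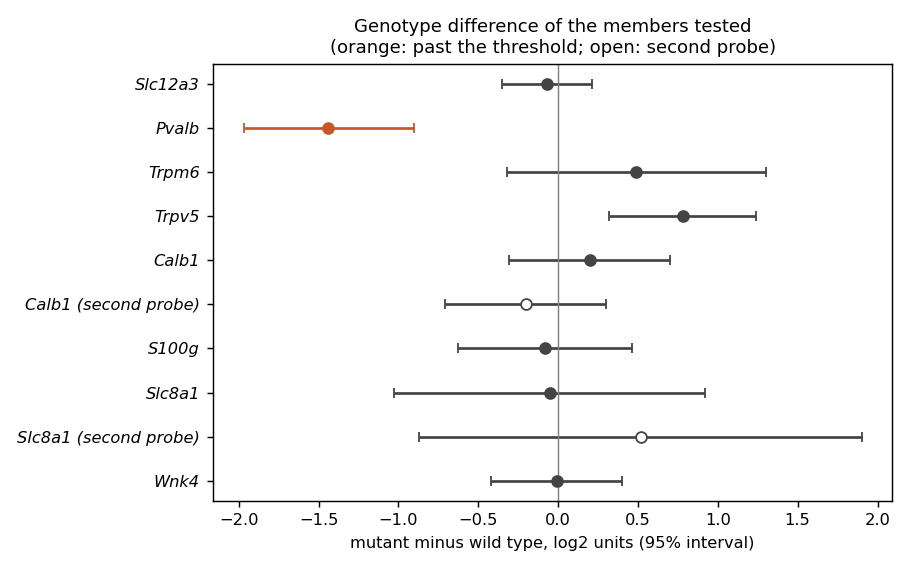
Mutant minus wild-type difference in log2 units (horizontal axis) with its 95% interval for each probe of the 8 members tested, second probes as open symbols and the probe past the threshold in orange. The Pvalb interval, from -1.97 to -0.90, is the one coloured as passing, and that of Slc12a3, from -0.35 to 0.21, is narrow beside those of the dim probes for Slc8a1 and Trpm6.

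Of the regulatory kinases, Wnk4, which controls the activity of the Slc12a3 cotransporter, read 3.71, 4.0 and 3.51 in wild type and 3.92 and 3.54 in mutant replicates 2 and 3, with no value for mutant replicate 1. The difference was -0.01 ± 0.19 with a 95% interval from -0.42 to 0.40 (limma, adjusted p = 0.990, 2 mutant arrays). The sign turned with array weights (0.07) and without wild-type replicate 2 (0.12). Wnk1, of which the kidney makes a short form in the distal convoluted tubule, read between -1.79 and -0.63 on the 6 arrays. It lay below the low-signal limit throughout and did not pass the filter on dim probes, so it has no call.

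Klk1, tissue kallikrein, likewise had no call. Its probe read -0.26, -1.74 and -0.71 in wild type and -0.15, -1.05 and -1.79 in mutants, all below the low-signal limit. A second probe carried the Klk1 symbol together with another gene's and was not used. The mouse has many close kallikrein relatives, and whether this probe also binds their transcripts is not known. The relatives with bright probes were Klk1b27, with a difference of 0.08 ± 0.15, and Klk1b8, with 0.02 ± 0.18, both named after their values were seen.

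Since Slc12a3 and Pvalb are transcribed in the same early segment, each of the other 6 tested members measured on all arrays was also read against Slc12a3 on the same array. That removes a constant scale factor of each array, but not scaling that varies with intensity. Wnk4, which lacked a value, and Wnk1 and Klk1, which did not pass the filter, were left out. This reading was added after the values were seen. The log2 difference of Pvalb to Slc12a3 was 0.09, 0.06 and -0.54 in wild type and -1.95, -0.86 and -1.67 in mutants. It was lower on every mutant array, by means of -0.13 ± 0.351 and -1.50 ± 0.566 (SD, n = 3 each), a shift of -1.37. For Trpv5 the corresponding values were -1.79, -1.33 and -1.75 in wild type and -0.58, -0.59 and -1.14 in mutants, a shift of 0.85. Here too every mutant array lay on the same side, unlike in the Trpv5 levels themselves. Trpv5 was described above as a channel of later segments, so the shared-segment reason does not cover it.

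Groups did not overlap for 2 of the 6 members set against Slc12a3, and for 29.8% of all genes treated the same way. Both gave p = 0.10 by a two-sided exact permutation test, the smallest that 3 against 3 arrays allow, and 0.300 after Benjamini-Hochberg adjustment over the 6. For Trpm6 and Calb1 the shifts were 0.56 and 0.27 (exact p = 0.20 each), and for S100g and Slc8a1 they were -0.01 and 0.02 (exact p = 0.800 and 0.900).

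**Figure D3:**
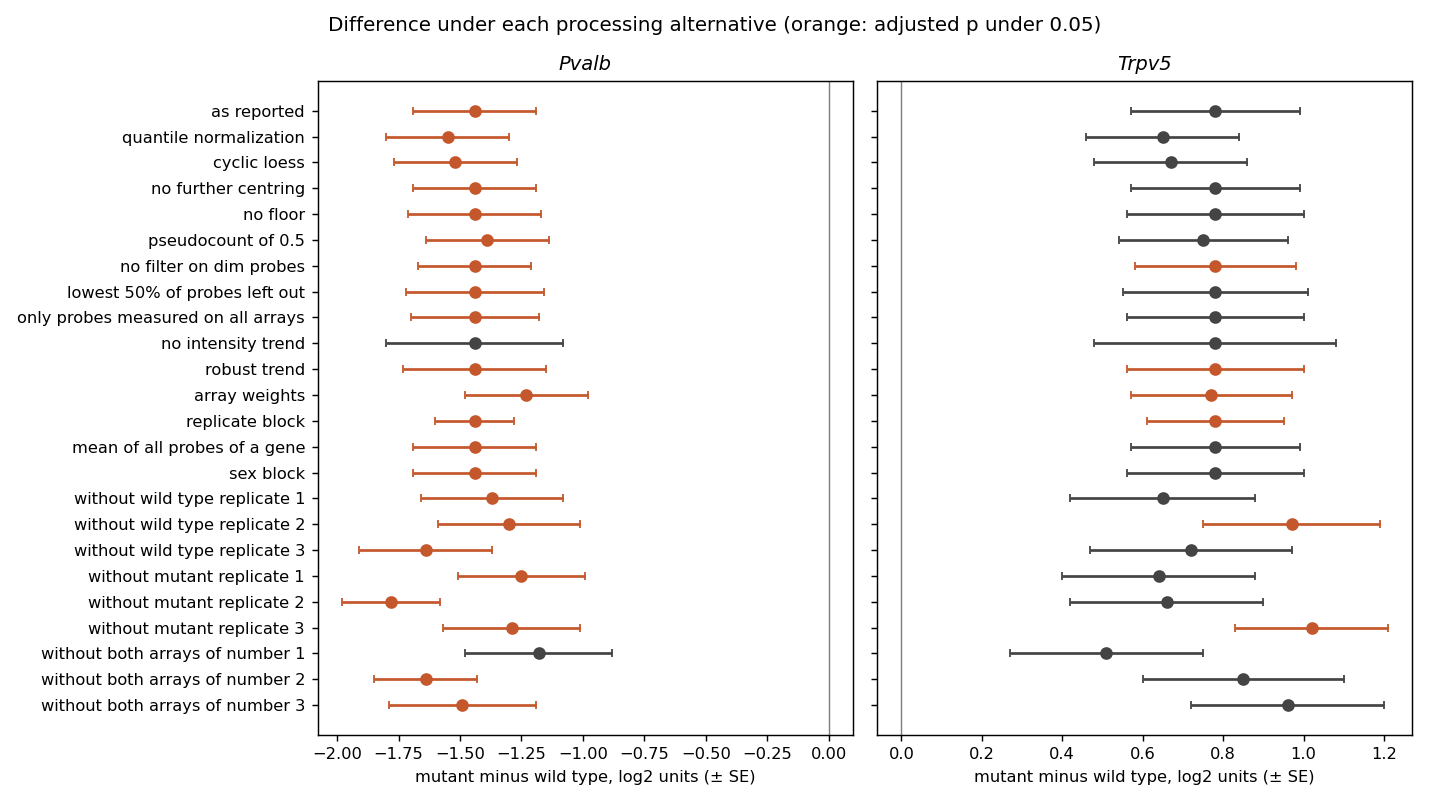
Mutant minus wild-type difference of Pvalb and Trpv5 in log2 units (horizontal axes, different spans) ± SE as reported and under each of 23 processing alternatives, in orange where the limma adjusted p was under 0.05. Pvalb stays between -1.78 and -1.18 and passes in 21 alternatives, and Trpv5 stays between 0.51 and 1.02 and passes in 6.

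Other genes of the same pathways were read from lists put together by function. Of 14 genes tested of the WNK-SPAK pathway and its regulators, 0 rose and 0 fell (limma), with a median difference of 0.01. The genes with the smallest p were Hsd11b2, whose enzyme shields the mineralocorticoid receptor from glucocorticoids (0.66 ± 0.24, adjusted p = 0.149), and Nr3c2, the receptor itself (0.33 ± 0.16, adjusted p = 0.318, 2 mutant arrays). A second Nr3c2 probe lay below the low-signal limit on all arrays and did not pass the filter. Its means were -0.88 in wild type and -1.34 in mutants. Hsd11b2 passed without mutant replicate 3, whose reading of 4.77 was the lowest mutant value beside 5.92 and 5.45. Without mutant replicate 1, the highest, its difference was 0.39 (limma, adjusted p = 0.431). Without both arrays numbered 1 it was 0.23 (adjusted p = 0.653). Stk39 (SPAK) and its relative Oxsr1, named for their role, differed by 0.42 ± 0.25 and -0.02 ± 0.16. Unadjusted p was under 0.05 for Hsd11b2 alone in this list.

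The list of basolateral potassium, chloride and sodium pump genes also held no call. It includes Kcnj1, whose potassium channel is apical rather than basolateral. Of the 5 genes tested, 0 passed the limma threshold and 1, Bsnd, had an unadjusted p under 0.05. The median difference of the 5 was -0.26, which is the value of Kcnj1, and 1 of the 5 differences was positive. Summed linear levels ran from 935 to 1010 array medians in wild type and from 618 to 873 in mutants, with Fxyd2 the brightest gene. Fxyd2 and Kcnj16, named after their values were seen, differed by -0.35 ± 0.27 and -0.20 ± 0.15 (limma, adjusted p = 0.583 and 0.555). Bsnd, the barttin subunit of kidney chloride channels, differed by 1.71 ± 0.56 (limma, adjusted p = 0.111), but its mean lay below the low-signal limit in both genotypes. Atp1b1, a subunit of the sodium pump, differed by -0.33 ± 0.18 (adjusted p = 0.387). In fits without 1 array, Bsnd passed without wild-type replicate 3 and Atp1b1 without wild-type replicate 1.

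Among 11 tested genes of renal magnesium handling, 1 fell and 1 rose, where 1.59% and 5.67% of all genes did. An unadjusted p under 0.05 (limma) was found for 5 of the 11. Besides the genes called, these were Pcbd1 (-0.39 ± 0.14), Slc41a3 (1.31 ± 0.49) and Cldn16 (0.38 ± 0.14), named after their values were seen. Egf, the growth factor made in the distal nephron that stimulates TRPM6, read 5.61, 5.94 and 5.69 in wild type and 4.58, 4.92 and 4.70 in mutants. All mutant arrays lay below all wild-type arrays, and the level was 2.02-fold lower (-1.02 ± 0.14, limma, adjusted p = 0.000747). Slc41a1, a magnesium transporter of the blood side, read 3.72, 3.78 and 3.78 against 4.86, 4.39 and 4.41. It rose by 0.79 ± 0.15 log2 units, or 1.73-fold (adjusted p = 0.00601).

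Both calls held in each fit without 1 array and were lost when the variance had no intensity trend (limma, adjusted p = 0.0896 for Egf and 0.162 for Slc41a1). The receptor of Egf, Egfr, differed by -0.07 ± 0.18 in its brighter probe, with 2 wild-type values. A dimmer Egfr probe, above the low-signal limit on all arrays, was 2.29-fold lower (adjusted p = 0.0150), so the probes of this gene disagreed.

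Among 13 tested genes of renal calcium and vitamin D handling, 2 rose and 0 fell, with a median difference of -0.05. An unadjusted p under 0.05 (limma) was found for 5 of the 13. Those not called, named after their values were seen, were Atp2b4 (0.72 ± 0.21), Slc8a3 (1.36 ± 0.49) and Cyp27b1 (-1.59 ± 0.60). Slc8a3 and Cyp27b1 each had a genotype mean below the low-signal limit. The genes that rose were Anxa2 and S100a10, whose protein products form a complex known to bind TRPV5 and carry it to the cell surface. They are not particular to the distal tubule, since many cell types, fibroblasts and macrophages among them, make both. Anxa2 read 3.18, 3.70 and 3.54 in wild type and 4.60, 4.75 and 5.05 in mutants, a rise of 1.32 ± 0.17 or 2.50-fold (limma, adjusted p = 0.000258).

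S100a10 read 3.05, 2.95 and 2.62 in wild type and 3.58 and 3.92 in mutant replicates 1 and 2, with no value for mutant replicate 3. It rose by 0.87 ± 0.19 (limma, adjusted p = 0.0173). That call was lost without wild-type replicate 3 (adjusted p = 0.0772), after quantile normalization (0.0545) and with no intensity trend (0.225). It could not be tested without mutant replicate 1 or 2, which leaves 1 mutant value. The Anxa2 call was lost with no intensity trend (adjusted p = 0.0726).

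The list of kallikrein relatives and kinin genes (9 tested) and that of the sodium channel and connecting tubule genes (10 tested) held 0 calls each by limma (0 and 1 had an unadjusted p under 0.05), with medians of 0.08 and 0.14. Klkb1, plasma kallikrein, and Klk1b24 had the smallest p of the first list, with genotype means below the low-signal limit. In the second list Gata3, a transcription factor of the collecting duct lineage, read 3.04, 3.09 and 3.02 in wild type and 3.67, 3.55 and 3.32 in mutants. Its groups did not overlap, but the difference of 0.46 ± 0.15 did not pass (adjusted p = 0.106). Scnn1b, the beta subunit of the epithelial sodium channel, differed by 0.30 ± 0.17 (adjusted p = 0.408). The alpha and gamma subunits, named for their role, differed by 0.05 ± 0.17 (Scnn1a) and 0.13 ± 0.18 (Scnn1g).

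**Figure D4:**
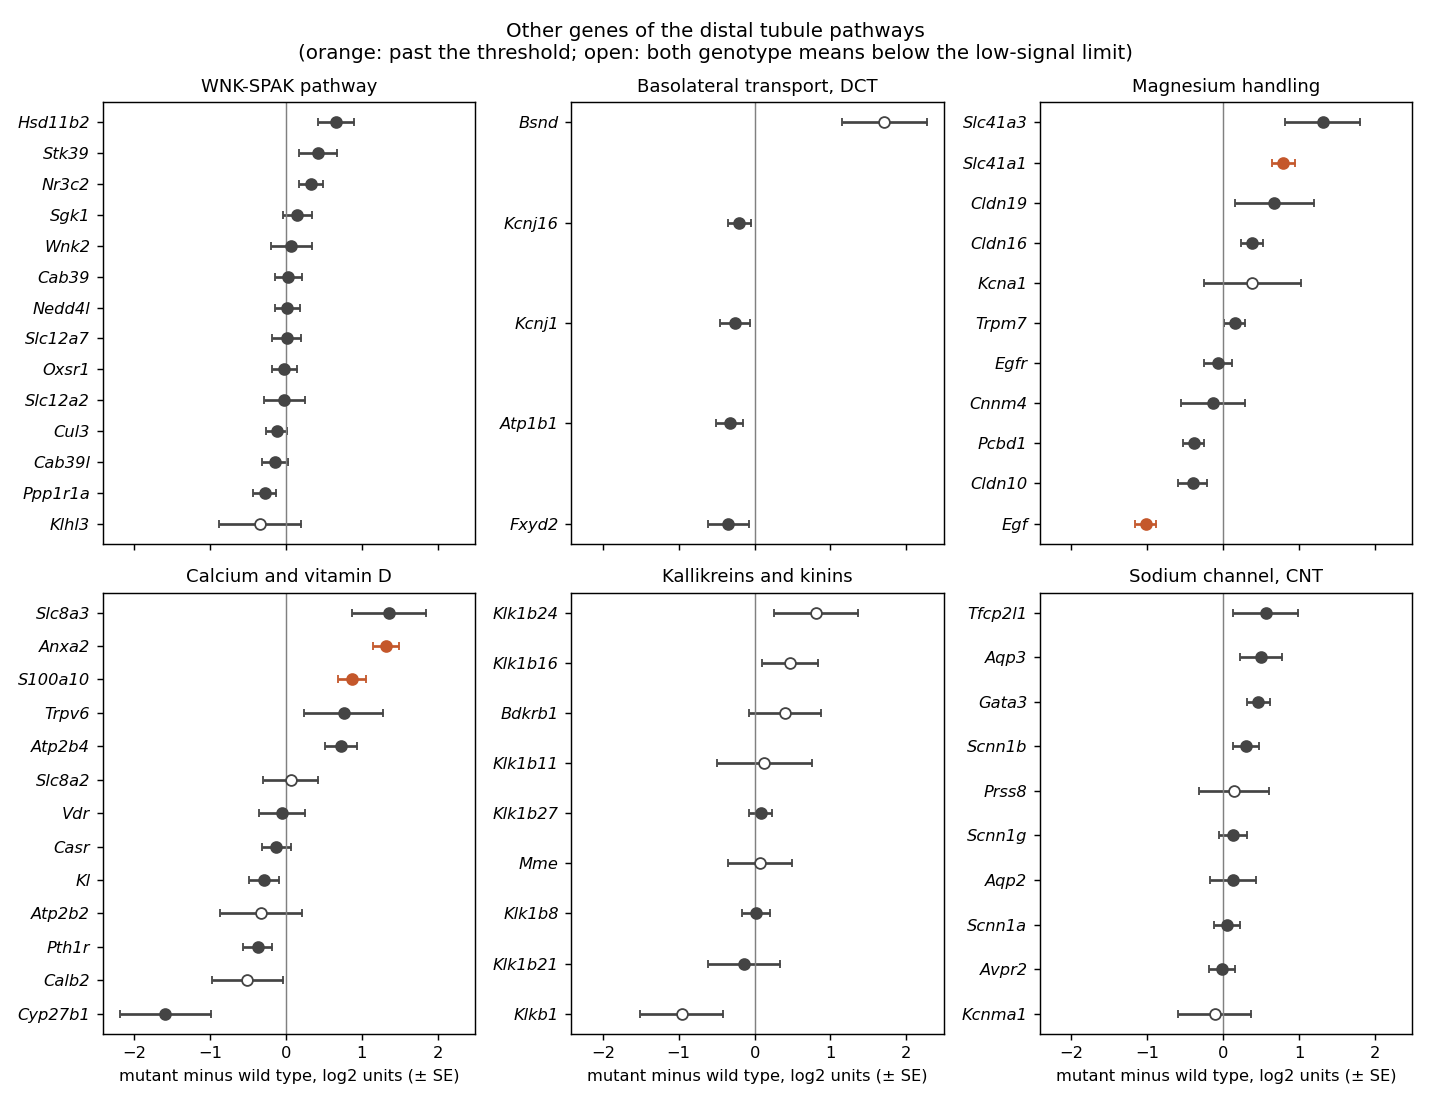
Mutant minus wild-type difference in log2 units ± SE (horizontal axes) of the other tested genes of the distal tubule pathways, 1 panel per list (DCT, distal convoluted tubule; CNT, connecting tubule), in orange where the limma adjusted p was under 0.05 and open where both genotype means lay below the low-signal limit. Egf at -1.02, Slc41a1 at 0.79, Anxa2 at 1.32 and S100a10 at 0.87 are the genes that passed.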

How the data were processed

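Per the labels' protocols, column-purified RNA was labelled for CodeLink arrays. The deposited table held 1 linear intensity per probe and array, processed by the authors. Values from -1.02 to 951 and array medians between 0.994 and 0.997 show background subtraction and scaling, with the software and method not given in the labels. Each array was divided by its median, values of 0 or less became missing, those below 0.290 (the 10th percentile) were raised to it, and log2 was taken. Probes with values on 2 arrays per genotype numbered 34445, of which the lowest 25% by mean were left out, and 25834 were tested with limma 3.58.1 in R 4.3.3 (intensity trend, two-sided), with Benjamini-Hochberg adjustment over all of them. Symbols came from the platform annotation, under which 21590 probes had 1 symbol, 681 had several and 12666 had none. Genes had 1 probe each, that of the highest mean level.

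The members and lists were chosen with earlier results of these data known. Beside the members, up to 4 genes that passed were named per pathway list (or the 2 of smallest p) and up to 3 per marker list, of which only those bearing on the members are described; further genes are marked in the text. The code was tested on simulated data. Alternatives covered scaling, floor, filters, variance models, array weights, a replicate block, probe averaging, and leaving out arrays; a block for the sex-linked pattern was added after seeing the data. The number of arrays limits the precision. No array sequence or genome position was used.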

Additional observations from a re-analysis of the deposited data

How the results depend on the processing

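Probes past the threshold numbered 1392 (1063 higher in mutants, 329 lower), and 191 (179 and 12) with no intensity trend. Those lower numbered 551 after quantile normalization and 554 after cyclic loess. In 9 fits without 1 array, or without both arrays of a replicate number, the counts ran from 535 to 1230, from 476 to 1026 higher and from 59 to 325 lower; such fits have fewer arrays. Called members numbered 2 (Pvalb and Trpv5) with no filter on dim probes, a robust trend, array weights or the replicate block, 0 with no intensity trend, and 0 to 2 without arrays. Pvalb kept its direction in all 23 alternatives, at -1.44 with no intensity trend and between -1.78 and -1.18 without arrays. Trpv5 differed by 0.78 with no filter, robust trend or replicate block and 0.77 with array weights, passing in each, and by 0.51 to 1.02 without arrays. The cause of these shifts was not tested. Signs turned for members that passed in no alternative: Calb1 was 0 with probes averaged and from -0.08 to 0.38 without arrays, S100g 0.04 after cyclic loess and from -0.23 to 0.10, Slc8a1 0.23 with probes averaged and from -0.46 to 0.30, and Wnk4 0.07 with array weights and from -0.12 to 0.12. Without mutant replicate 2 or 3, Wnk4 had 1 mutant value and was not tested. Replicate numbers were not treated as pairs in the main fit, and whether they mark pairs is not known. Deviations of same-numbered arrays correlated at 0.072, 0.020 and 0.070, although each array correlated best with its own number. With the replicate block, 1856 probes passed, and Trpv5 had a limma adjusted p of 0.00821. Quantile normalization and cyclic loess moved the median of all probes from 0.06 to -0.01 and -0.02. Low signal limits Trpm6, Slc8a1, Wnk1 and Klk1.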

Other observations

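The genes whose levels ran most like those of Slc12a3 over the 6 arrays, among 7731 genes above the low-signal limit on all arrays, were 3830406C13Rik (Pearson r = 0.994), Kl (0.992), which encodes the calcium- and phosphate-regulating protein klotho, and Araf (0.986). For Calb1 they were Cd81 (0.995), Rassf8 (0.990) and Whrn (0.986). The arrays share their scaling, the SD of the Slc12a3 profile was 0.10 log2 units and that of Calb1 0.32, and among so many genes high values arise with 6 points, so these are descriptions. None of the 6 genes passed the genotype comparison (limma, adjusted p from 0.535 to 0.918).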
